A study of Caenorhabditis elegans with 6 samples.

Results

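The alcohol and aldehyde dehydrogenases described here are 10 genes of Caenorhabditis elegans chosen by name: sodh-1, adh-5, alh-1, alh-2, alh-3, alh-4, alh-5, alh-6, alh-12 and alh-13. Of these, 9 were matched by gene name among the 25212 genes of the deposited table, and alh-2 was not analysed here. The animals were whole worms of the wild-type strain N2. The ASP group had received aspartame (100 µM in the series' design text), and the Control group is labelled only as control. Each group has 3 libraries of poly(A)-selected RNA, numbered 1 to 3 in both groups. The series is about innate immunity to Pseudomonas aeruginosa, and the labels do not say whether these animals had met the bacterium, how old they were or what a replicate number stands for.

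Alcohol dehydrogenases oxidise alcohols to aldehydes, and aldehyde dehydrogenases oxidise aldehydes to acids, both with a nicotinamide cofactor. Aspartame is a dipeptide methyl ester, and its digestion in animals gives aspartate, phenylalanine and methanol. Methanol is oxidised to formaldehyde, which the class III alcohol dehydrogenase removes as its glutathione adduct, and the resulting formate enters the folate pool. Other aldehyde dehydrogenases act on fatty aldehydes from membrane lipids or on the semialdehydes of proline metabolism, so a shared protein family serves several pathways in the worm's gut and epidermis.

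Library totals ran between 53558562 and 63581942 estimated counts, with 3.24% to 7.19% of counts on ribosomal RNA genes. Every intestinal, epidermal and muscle marker found was above 0 in each library. The libraries numbered 3 had the highest molting and the lowest yolk marker sums in both groups. The molting sums also differed between numbers 1 and 2. Summed FPKM (fragments scaled to transcript length and sequencing depth) of 10 molting genes was 724 in ASP 3 and 558 in Control 3. It was 253 in ASP 2 and 322 in Control 2, and 117 in ASP 1 and 139 in Control 1. The sum of the 6 yolk protein genes was 922 in ASP 3 and 999 in Control 3, against 2547 to 3108 in the others.

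On the FPKM scale, which is per length and so lets genes be compared, alh-1 was the highest member at 114.2 ± 5.91 (SD over all 6 libraries). It was followed by adh-5 at 71.9 ± 5.21, whose range over the libraries did not meet that of alh-1. Then came alh-4 at 61.2 ± 15.1, alh-6 at 54.4 ± 11.97, alh-13 at 36.5 ± 22.7, alh-3 at 35.5 ± 4.23, sodh-1 at 32.3 ± 15.8 and alh-12 at 31.6 ± 5.00. Between adh-5 and alh-12 the range of each gene overlapped that of its neighbour in this order, so neighbours there did not differ beyond their spread. alh-5 at 1.77 ± 1.01 lay far below the rest and was the member closest to the limit of 1 FPKM set for testing. alh-1 varied least, 1.14-fold between its lowest and highest library, and adh-5 1.23-fold. sodh-1 varied most, 6.77-fold, followed by alh-5 at 4.27-fold and alh-13 at 3.85-fold.

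**Figure D1:**
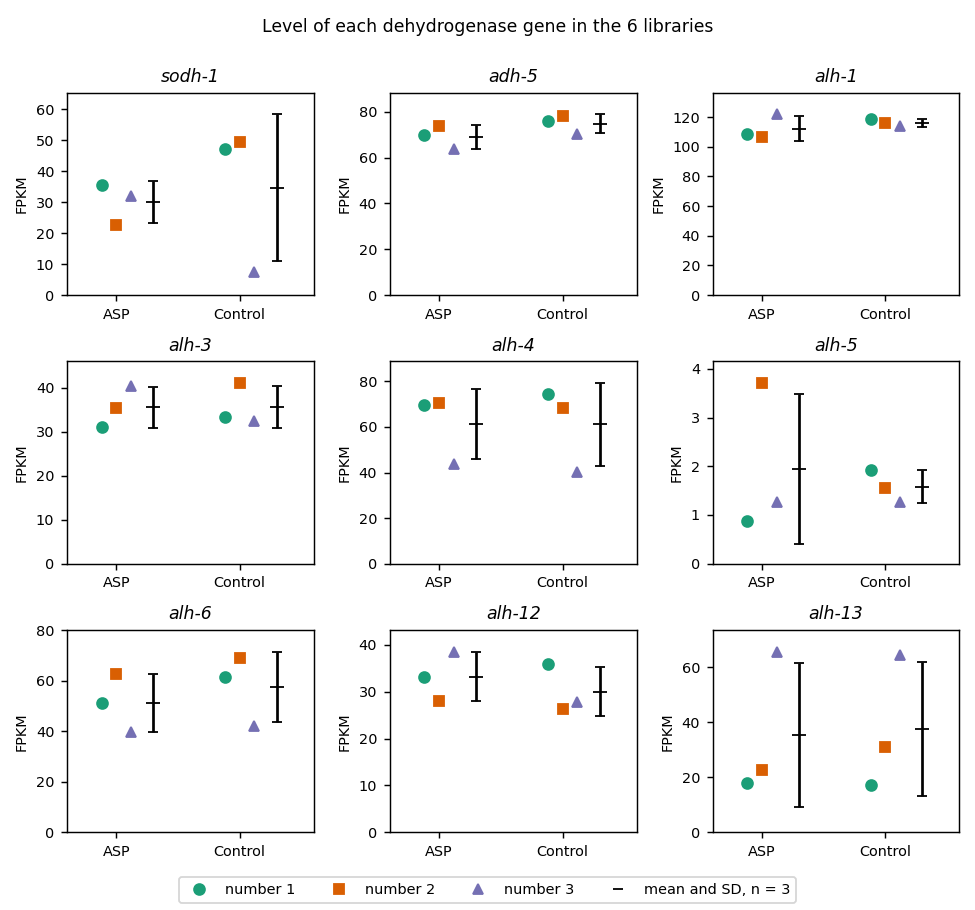
FPKM of each of the 9 genes in the 3 ASP and 3 Control libraries (colour and shape give the replicate number), with the group mean and SD (n = 3) beside the points. The groups overlap for every gene, while alh-13 is high and alh-4 and alh-6 are low in both libraries numbered 3.

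The comparison of ASP with Control asks whether aspartame changed these enzymes. None of the 9 members passed the threshold (edgeR quasi-likelihood test, Benjamini-Hochberg adjusted p under 0.05 over 13790 genes), and each had an adjusted p of 0.9999. Over all genes 0 were called, a share of 0.0%, with 62 at an unadjusted p under 0.05 (0.45%), and DESeq2 and limma on log2(FPKM + 1) also called 0, with 73 and 71. Were there no effect, about 5% of genes would be expected under that limit. The edgeR share of 0.45% was far below this, in a test that ignores the replicate number. Taking that number into account in edgeR gave 369 such genes, also with 0 called. The 0 calls therefore do not show that aspartame left these genes unchanged. ASP and Control libraries overlapped for each of the 9 genes, against 3.39% of genes tested whose libraries did not overlap. The median log2 difference of the members was −0.07, with 2 above 0 and 7 below, beside a median of 0.00 over all genes tested. With the replicate number as a block it was −0.02, with 3 above 0 and 6 below. These p-values measure the spread between libraries of a group, which in a fit without a block includes differences between replicate numbers shared by both groups. The SE was smaller with the block for each of the 9 members, for example 0.68 without and 0.09 with it for alh-13, and 0.25 and 0.07 for alh-4. The labels do not say that libraries come from separate cultures, so whether the spread is biological or technical is not known.

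sodh-1 encodes an alcohol dehydrogenase with a role in ethanol breakdown, and its annotation in the table includes defence against Gram-positive bacteria. The gene (179627, V 11888248 to 11889650, plus strand, 3 exons) is called adh-1 in RefSeq and in Ensembl release 115. It had 35.6, 22.5 and 31.96 FPKM in ASP 1, 2 and 3, against 47.0, 49.5 and 7.32 FPKM in Control 1, 2 and 3. Control 3 was the lowest of the 6 libraries and Control 2 the highest, so the Control values spanned those of ASP. The numbered pairs gave log2 ratios of ASP to Control of −0.40, −1.14 and 2.13, with pair 3 opposite in sign to pairs 1 and 2. That contrast between pairs was not tested.

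The fitted log2 difference of sodh-1 was −0.19 (SE 0.62), with a 95% interval between 0.31-fold and 2.44-fold. Without Control 3 it was −0.66 (SE 0.20, adjusted p 0.9999 in edgeR). It was above 0 without Control 1 (0.09), without Control 2 (0.14), with limma on log2(FPKM + 1) (0.16) and with the replicate number as a block (0.10), so no direction was determined. Its last 70 bases overlap the paralogous gene sodh-2 on the minus strand (V 11889581 to 11889650), and whether counting used strand is not given in the sources used here. sodh-2 was at or below 0.288 FPKM in every library and listed at 0 in Control 3.

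The 3 genes with profiles most like sodh-1, by Pearson r of log2(FPKM + 1) over the 6 libraries among 10075 other genes averaging 5 FPKM or more, were M01E5.2 (r 0.996), C33A12.4 (r 0.993) and cln-3.2 (r 0.989). The table describes cln-3.2 as battenin, and the other 2 as uncharacterized. All 3 had their lowest value in Control 3, for example 5.75 FPKM for M01E5.2 in Control 3, with 7.06 to 8.16 in the other 5 libraries. The libraries behind these coefficients are few and share the low Control 3, and 245 genes had an r above 0.9.

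adh-5, the class III alcohol dehydrogenase that oxidises the glutathione adduct of formaldehyde, lies on V at 911774 to 916315 (178597, plus strand, 5 exons, 386 residues). It had 69.7, 73.9 and 63.6 FPKM in ASP 1, 2 and 3, against 75.8, 78.2 and 70.2 FPKM in Control 1, 2 and 3. ASP was lower in each numbered pair, by small amounts (log2 −0.12, −0.08 and −0.14). The group means were 69.0 ± 5.17 FPKM in ASP and 74.7 ± 4.11 FPKM in Control (SD, n = 3 each). The fitted log2 difference was −0.13 (SE 0.09), and its 95% interval ran between 0.791-fold and 1.05-fold. With the replicate number as a block the interval ran between 0.820-fold and 1.01-fold.

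The profile of adh-5 was most like those of Y48A5A.3 (r 0.994), F53A3.7 (r 0.987) and F44G4.2 (r 0.981) over the 6 libraries, with 71 genes above 0.9. F44G4.2 is annotated as a subunit of the mitochondrial NADH dehydrogenase, and the other 2 as uncharacterized. F44G4.2 had 204, 217 and 192 FPKM in ASP 1, 2 and 3, against 223, 223 and 211 FPKM in Control 1, 2 and 3.

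alh-1 (175691, III 5077764 to 5080661) encodes an aldehyde dehydrogenase of the type that oxidises acetaldehyde and similar small aldehydes. It had 108.3, 106.6 and 121.8 FPKM in ASP 1, 2 and 3, against 119.0, 115.8 and 113.8 FPKM in Control 1, 2 and 3. ASP was lower in pairs 1 and 2 and higher in pair 3, and the log2 difference was −0.07 (SE 0.10), with an interval between 0.802-fold and 1.13-fold. alh-2 is a paralogue of this gene, and how reads shared between them were counted is not given in the sources used here.

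alh-3 (177999, IV 11022603 to 11025870) encodes 10-formyltetrahydrofolate dehydrogenase, which releases one-carbon units from folate as carbon dioxide and is the longest protein of the set at 908 residues. It had 30.9, 35.3 and 40.3 FPKM in ASP 1, 2 and 3, against 33.4, 41.0 and 32.3 FPKM in Control 1, 2 and 3. The pair log2 ratios were −0.11, −0.22 and 0.32, and the fitted value was −0.01 (SE 0.14). An interval between 0.779-fold and 1.26-fold bounds any change of this gene.

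The fatty aldehyde dehydrogenase gene alh-4 (179026, V 6427208 to 6429920), known for its part in lipid and peroxisome balance in worms, had 69.7, 70.7 and 43.5 FPKM in ASP 1, 2 and 3, against 74.7, 68.2 and 40.5 FPKM in Control 1, 2 and 3. Within a number the groups differed little, with pair log2 ratios of −0.10, 0.05 and 0.11, and the fitted value was −0.01 (SE 0.25). With the replicate number as a block, the log2 value was −0.00 (SE 0.07).

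alh-5 (178680, V 1996105 to 1999581) carries the same family annotation as alh-4. It had 0.869, 3.71 and 1.27 FPKM in ASP 1, 2 and 3, against 1.93, 1.55 and 1.27 FPKM in Control 1, 2 and 3. Only ASP 2 stood above 2 FPKM, with 346 estimated counts, while the other libraries held 76 to 173. The log2 difference was 0.28 (SE 0.55) with all libraries and −0.57 (SE 0.34) without ASP 2, so its sign rested on that library.

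alh-12 (176056, III 7454074 to 7455936) is annotated in the table with 4-trimethylammoniobutyraldehyde dehydrogenase activity, a step of carnitine synthesis. It had 33.1, 28.0 and 38.5 FPKM in ASP 1, 2 and 3, against 35.9, 26.3 and 27.7 FPKM in Control 1, 2 and 3. ASP 3 was the highest library, and the pair log2 ratios were −0.12, 0.09 and 0.47. The fitted value was 0.13 (SE 0.18), and −0.01 without ASP 3.

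A pair of members handle opposite directions of proline metabolism. alh-6 (173510, II 1306243 to 1309754) encodes the mitochondrial pyrroline-5-carboxylate dehydrogenase, the last enzyme of proline breakdown to glutamate. It had 51.2, 62.7 and 39.6 FPKM in ASP 1, 2 and 3, against 61.4, 69.2 and 42.1 FPKM in Control 1, 2 and 3. ASP was lower in each pair (log2 −0.26, −0.14 and −0.09), and the fitted value was −0.18 (SE 0.21). With the replicate block the 95% interval of alh-6 ran between −0.34 and −0.03 in log2, with an adjusted p of 0.997 in edgeR.

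alh-13 (181417, X 12782394 to 12787147) encodes the 2-domain glutamate 5-kinase and glutamate-semialdehyde dehydrogenase that begins proline synthesis. It had 17.9, 22.8 and 65.6 FPKM in ASP 1, 2 and 3, against 17.1, 30.9 and 64.6 FPKM in Control 1, 2 and 3. The libraries numbered 3 were high in both groups, and the pair log2 ratios were 0.07, −0.44 and 0.02. The fitted value was −0.12 (SE 0.68), with an interval between 0.299-fold and 2.85-fold, and −0.13 (SE 0.09) with the block. The gene nhr-27 spans all of alh-13 on the other strand, but reached at most 0.115 FPKM.

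Across the pairs, 8 members were lower in ASP in pair 1, 6 in pair 2 and 2 in pair 3. adh-5 and alh-6 were the 2 members lower in every pair, beside 8.88% of the genes tested, and 0 members were higher in every pair, beside 12.8%. The summed FPKM of the 9 members was 417, 426 and 446 in ASP 1, 2 and 3, against 466, 481 and 399.7 in Control 1, 2 and 3, so ASP was lower in pairs 1 and 2 and higher in pair 3.

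**Figure D2:**
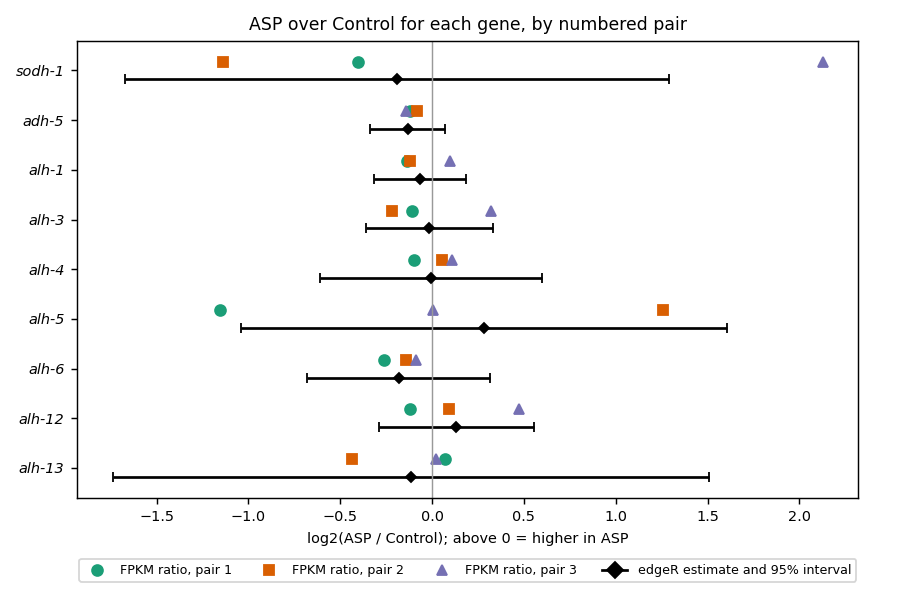
Log2 ratio of ASP to Control FPKM in each numbered pair (coloured points) and the edgeR estimate with its 95% interval (black diamonds) for the 9 genes. The intervals come from the fit without a block and so do not use the pairing of the points. Every interval includes 0, and sodh-1 in pair 3 (log2 2.13) is the point farthest from 0. With the replicate number as a block, not plotted, only the interval of alh-6 excluded 0 (log2 −0.34 to −0.03, adjusted p 0.997 in edgeR).

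Differences between replicate numbers were larger than those between ASP and Control for part of the set. The numbers were compared in edgeR with treatment as a further term, so each number is represented by its ASP and its Control library (n = 2). Of 9 members, 3 passed the threshold in number 3 against number 2, beside 24.3% of all genes tested, and 3 passed in number 3 against number 1, beside 37.5%. In number 2 against number 1, 1 passed, beside 3.84%. That last share was unstable, since the 530 genes behind it became 78 without Control 2, 195 without ASP 2, 1546 without ASP 3, 1511 without Control 3 and 9 without a filter, and members called ran between 0 and 3. The 3346 genes of number 3 against number 2 became 1402 without ASP 2 and 1481 without Control 2, and the 5167 against number 1 became 3391 without ASP 1 and 3253 without Control 1. By direction, 1 member was higher and 2 lower in number 3 than in number 2 (12.1% and 12.2% of all genes), and likewise against number 1 (18.3% and 19.1%). The even split over all genes depended on the scaling. Against number 2 the median gene lay at log2 −0.002 with TMM, 0.001 with DESeq2 and −0.08 with library totals only. Which scaling is right was not tested. With library totals only, 1247 genes were higher and 2193 lower against number 2, and 1990 and 3361 against number 1. With limma on log2(FPKM + 1) these were 1096 and 2098, and 1884 and 3323. The single call of number 2 over number 1 was upward (2.7% of all genes, and 1.14% downward). Of the members, 1 had both libraries of number 3 above the other 4 and 2 had them below, beside 20.4% and 35.0% of genes tested. Since animals were sequenced whole, fewer cells of a type and less RNA per cell cannot be told apart in these differences.

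alh-13 rose in number 3. With 65.6 FPKM in ASP 3 and 64.6 in Control 3, against 22.8 in ASP 2 and 30.9 in Control 2, it was 2.604-fold higher than in number 2 (log2 1.38, SE 0.11, adjusted p 0.000135 in edgeR). Against number 1, with 17.9 in ASP 1 and 17.1 in Control 1, it was 3.99-fold higher (log2 1.995, SE 0.12, adjusted p 1.21e-05 in edgeR). It was also 1.53-fold higher in number 2 than in number 1 (adjusted p 0.0249 in edgeR). This smaller call was lost without Control 1 (log2 0.48, adjusted p 0.0996 in edgeR), without Control 2 (0.41, adjusted p 0.212), without a filter on low genes (adjusted p 0.293) and with limma on log2(FPKM + 1) (adjusted p 0.0899).

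alh-4 fell in number 3, with 43.5 FPKM in ASP 3 and 40.5 in Control 3, against 70.7 in ASP 2 and 68.2 in Control 2. It stood at 0.645-fold of number 2 (log2 −0.63, SE 0.09, adjusted p 0.00146 in edgeR) and 0.623-fold of number 1 (log2 −0.68, SE 0.09, adjusted p 0.000565). Both calls held in every fit that left out 1 library. In number 2 against number 1 the alh-4 difference was −0.05 (SE 0.09).

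alh-6 also fell in number 3, with 39.6 FPKM in ASP 3 and 42.1 in Control 3, against 62.7 in ASP 2 and 69.2 in Control 2. It stood at 0.662-fold of number 2 (log2 −0.59, SE 0.08, adjusted p 0.00164 in edgeR) and 0.781-fold of number 1 (log2 −0.36, SE 0.08, adjusted p 0.0111). The call against number 1 was lost without Control 1 (−0.28, adjusted p 0.208 in edgeR).

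The formaldehyde and acetaldehyde enzymes showed no call between numbers. adh-5 had intervals between 0.825-fold and 1.07-fold in number 3 against number 2 and between 0.866-fold and 1.122-fold in number 3 against number 1. alh-1 had intervals between 0.987-fold and 1.30-fold and between 0.970-fold and 1.27-fold in the same comparisons. alh-3 was at log2 0.27 (SE 0.11, adjusted p 0.0904 in edgeR) in number 3 against number 1, and passed only without Control 3 (0.48, adjusted p 0.00157). alh-12 was at log2 0.37 (SE 0.13, adjusted p 0.0660 in edgeR) in number 3 against number 2 and passed in DESeq2 (adjusted p 0.0486, where 12.5% of all genes were called higher) and in edgeR without ASP 1, Control 1 or Control 3. In number 2 against number 1, both alh-3 (0.25, SE 0.11) and alh-12 (−0.35, SE 0.13) passed only without ASP 3 or without Control 3.

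The value of sodh-1 between numbers turned on which library numbered 3 was kept. It had 31.96 FPKM in ASP 3 and 7.32 in Control 3, against 22.5 in ASP 2 and 49.5 in Control 2, which the fit put at log2 −0.84 (SE 0.61, adjusted p 0.350 in edgeR). Without ASP 3 the difference was −2.45 (adjusted p 6.82e-08 in edgeR), and without Control 3 it was 0.36 (adjusted p 0.1198). It also passed without ASP 1 (−1.01, adjusted p 0.0151 in edgeR) or Control 1 (−1.01, adjusted p 0.0128). Against number 1 the log2 difference of sodh-1 was −1.03 (SE 0.60), and it passed without ASP 3 (−2.73, adjusted p 7.62e-09 in edgeR) or ASP 1 (−1.53, adjusted p 0.00414). alh-5 did not pass in any comparison of numbers with all libraries, and its log2 difference of number 2 to number 1 was 0.90 (SE 0.52) with ASP 2 and −0.08 without it. That difference passed without Control 1 (1.84, adjusted p 0.0176 in edgeR).

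**Figure D3:**
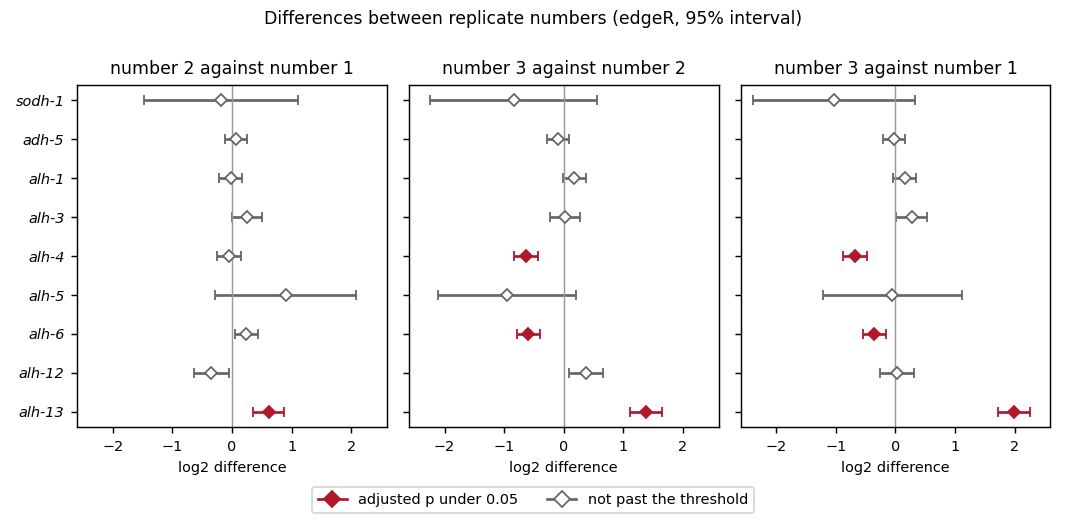
Log2 differences between replicate numbers for the 9 genes with 95% intervals (edgeR, treatment as a term, 2 libraries per number), with filled red diamonds for an adjusted p under 0.05. alh-13 lies above 0 in all 3 comparisons, and alh-4 and alh-6 lie below 0 and pass in both comparisons with number 3.

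Beside alh-13 and alh-6, the proline and ornithine list had 6 entries, of which 4 were tested. In number 3 against number 1, 2 were called higher and 1 lower, beside 18.3% and 19.1% of all genes. pycr-1, a pyrroline-5-carboxylate reductase that finishes the synthesis alh-13 starts, had 80.6 FPKM in ASP 3 and 78.6 in Control 3, against 34.2 in ASP 1 and 33.6 in Control 1 (log2 1.33, SE 0.08, adjusted p 1.64e-05 in edgeR). It also rose against number 2, by log2 1.07 (SE 0.08, adjusted p 0.000107 in edgeR), as the single call of the list there (12.1% of all genes were higher). oatr-1, ornithine aminotransferase, rose against number 1 (log2 0.38, SE 0.08, adjusted p 0.00754 in edgeR). pycr-4, annotated as another putative reductase, fell (−0.32, SE 0.10, adjusted p 0.0293 in edgeR). prdh-1, proline dehydrogenase, the enzyme before alh-6 in proline breakdown, was at −0.24 (SE 0.09) and did not pass (adjusted p 0.0620 in edgeR). Between ASP and Control 0 of the 4 were called, with log2 between −0.10 and 0.05.

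The folate one-carbon list, which adjoins adh-5 and alh-3, had 9 tested entries, 1 of which (Y106G6H.5) bears the name pdpr-1 in the table and is described there as a regulator of pyruvate dehydrogenase phosphatase. In number 3 against number 1, 3 were called higher and 2 lower, beside 18.3% and 19.1% of all genes. Against number 2, 3 were higher and 1 lower, beside 12.1% and 12.2%. dao-3, a methylenetetrahydrofolate dehydrogenase homologue, had 34.7 FPKM in ASP 3 and 38.6 in Control 3, against 14.6 in ASP 1 and 15.5 in Control 1 (log2 1.38, SE 0.10, adjusted p 3.85e-05 in edgeR). The purine synthesis genes atic-1 (log2 0.70, SE 0.09) and F38B6.4 (0.68, SE 0.13) rose against number 1. In the same comparison dhfr-1 (−0.39, SE 0.10), dihydrofolate reductase, and tyms-1 (−0.49, SE 0.17), thymidylate synthase, fell. The adjusted p of tyms-1 was 0.0480 in edgeR, close to the threshold. Between ASP and Control 0 of the 9 were called (median log2 −0.01), and dao-3 was at −0.21 (SE 0.49).

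**Figure D4:**
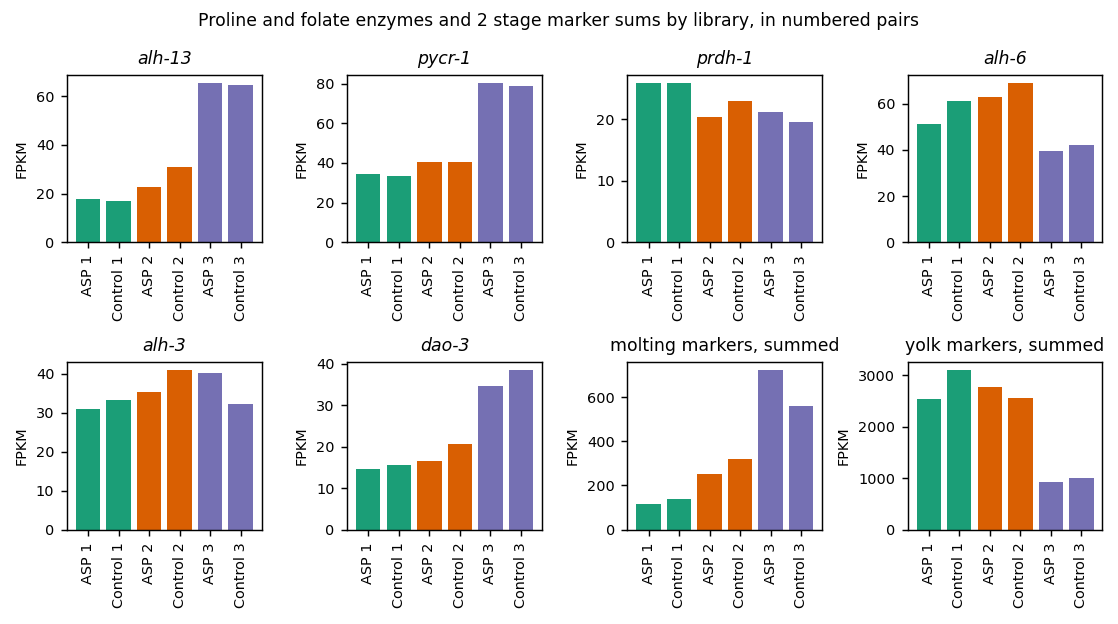
FPKM in each library, in numbered pairs with ASP left of Control, for the proline genes alh-13, pycr-1, prdh-1 and alh-6, the folate genes alh-3 and dao-3, and the summed molting and yolk markers. alh-13, pycr-1, dao-3 and the molting sum are highest in both libraries numbered 3, where alh-6 and the yolk sum are lowest.

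Markers of stage and tissue also differed between numbers. In number 3 against number 1, 10 of 10 molting genes were called higher, and 6 of 6 yolk genes and 7 of 7 oocyte and eggshell genes were called lower. Of all genes tested, 18.3% were called higher and 19.1% lower there. In number 3 against number 2 the same lists had 9 higher, 6 lower and 7 lower, beside 12.1% higher and 12.2% lower of all genes. In number 2 against number 1, 9 of 10 molting genes were called higher (median log2 1.35), 4 of 7 oocyte and eggshell genes lower and 0 of 6 yolk genes in either direction. Of all genes, 2.7% were called higher and 1.14% lower in that comparison. There alh-13 was called higher (log2 0.61), a call lost in several of the alternative fits, while alh-4 (−0.05) and alh-6 (0.24) did not pass.

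Other marker lists were mixed in number 3 against number 1, where 18.3% of all genes were called higher and 19.1% lower. In lists this short, a single call is near those shares. Of 5 epidermal genes, the cuticle collagen genes dpy-7 (log2 2.37) and rol-6 (2.34) and the transcription factor gene elt-1 (0.43) were called higher. The adjusted p of elt-1 was 0.0493 in edgeR, close to the threshold. The collagen gene col-19 (−1.21) and the transcription factor gene elt-3 (−0.74) were called lower. Of 5 intestinal genes tested, ges-1, a gut esterase, was called higher (0.38) and act-5, the actin of intestinal microvilli, lower (−0.46). Of 4 body wall muscle genes myo-3 (0.42) and of 7 sperm genes spe-9 (0.83) were called, both higher. No marker found was at 0 in any library, and the part of stage or tissue makeup in the values of alh-13, alh-4 and alh-6 was not tested.

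Neighbouring steps of alcohol breakdown were examined in the same way. Of 4 tested genes for catalases and acetate activation, 3 rose and 1 fell in number 3 against number 1 (18.3% and 19.1% of all genes), and 3 rose and 1 fell against number 2 (12.1% and 12.2%). The 3 that rose were the catalase genes ctl-1, ctl-2 and ctl-3. ctl-2, the peroxisomal catalase, had 70.2 FPKM in ASP 3 and 62.0 in Control 3, against 40.0 in ASP 1 and 41.6 in Control 1 (log2 0.79, SE 0.08, adjusted p 0.000225 in edgeR). These 3 are close copies of each other, so their single values are uncertain. acs-19, acetyl-coenzyme A synthetase, which activates the acetate formed from acetaldehyde, fell (log2 −0.85, SE 0.10, adjusted p 0.000404 in edgeR). The glutathione genes gsr-1, gcs-1 and gss-1 had 0 calls in any comparison, and their log2 difference of ASP to Control lay between −0.05 and 0.02.

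Among 7 further alcohol and aldehyde dehydrogenases, sodh-2 was under the limit for testing and 6 were tested. Between ASP and Control 0 were called, with 1 above 0 and 5 below (median log2 −0.08). In number 3 against number 1, 1 was called higher and 2 lower, beside 18.3% and 19.1% of all genes. Against number 2, 0 were called higher and 1 lower, beside 12.1% and 12.2%. In number 2 against number 1, 0 were called higher and 1 lower, beside 2.7% and 1.14%. alh-9, the homologue of the lysine-degrading family 7 enzyme, fell in number 3 like alh-4 and alh-6, with 45.7 FPKM in ASP 3 and 42.1 in Control 3, against 73.4 in ASP 2 and 75.1 in Control 2 (log2 −0.66, SE 0.11, adjusted p 0.00292 in edgeR). alh-10 rose in number 3 against number 1 (log2 0.56, SE 0.12, adjusted p 0.00841 in edgeR). alh-8, methylmalonate-semialdehyde dehydrogenase, had the highest level of all these genes. It had 262 FPKM in ASP 2 and 282 in Control 2, against 390.3 in ASP 1 and 435 in Control 1, and fell in number 2 against number 1 (log2 −0.59, SE 0.10, adjusted p 0.0138 in edgeR). alh-8 was also lower in number 3 than in number 1 (log2 −0.63, SE 0.10, adjusted p 0.00143 in edgeR). Between number 3 and number 2 its difference was −0.035 (SE 0.10) and did not pass. alh-7 and alh-11 had 0 calls in the 4 comparisons.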

How the data were processed

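The authors deposited 1 table that holds both FPKM and counts for each gene in 6 libraries, per the file headers. The deposited FPKM values take transcript length and depth into account. The deposited counts are treated as estimated counts, and as whole numbers they needed no rounding. How reads were aligned and counted, and whether by strand, is not given in the sources used here. CASAVA 1.4 appears in the submitters' processing notes, beside mm9 and mm10, which are mouse builds, and the table's chromosome accessions belong to WBcel235. All 9 member IDs were found in RefSeq, and coordinates are as the table gives them. Exon counts and protein lengths, for the longest coding sequence, come from Ensembl release 115. No sequences are shown, because sequence tables were not used here.

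The 13790 genes averaging 1 FPKM or more were tested with edgeR 4.0.16 (TMM, quasi-likelihood, R 4.3.3), without a block for ASP against Control and with treatment as a term for the 3 comparisons of numbers. Fold changes are log2 with a standard error (SE) and a 95% interval from the fit. The edgeR fits were tested on simulated data, where the share of false calls was above the threshold of 0.05 in every comparison, so calls with an adjusted p close to it are less firm than stated. Apart from the changes put in for the comparison tested, the simulated data held no differences between replicate numbers. They therefore do not show how the unblocked fit of ASP against Control behaves where such differences are present. Alternatives were DESeq2 1.42.0, limma 3.58.1, other filters and scalings, the replicate block and each library left out. Across tested genes, same-numbered libraries deviated together from their group means (Pearson r of 0.811 in number 1, 0.524 in number 2 and 0.822 in number 3), so the numbers were read as pairing the libraries. The blocked fit stayed an alternative to the unblocked one reported. The members, lists and tests were chosen with earlier results of these data known. The text names all members, up to 3 genes of each list by smallest p in the comparison described, and the 3 genes most like sodh-1 and adh-5. sodh-1 was also the member with the widest range. Where more genes of a list are named they were chosen after their values were seen.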

Additional observations from a re-analysis of the deposited data

How the results depend on the processing

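In ASP against Control, 0 genes and 0 members were called under every alternative listed and with each library left out. The replicate block, taken because same-numbered libraries deviated together, also called 0 (369 genes at an unadjusted p under 0.05), changed no call and turned sodh-1 to 0.096. Of 116 alternative values of members in that comparison, 19 had the other sign, with 0 of them called. Beside the blocked value of sodh-1, they were sodh-1 with limma (0.16, and 0.19 with a pseudocount of 0.1), alh-4 with limma (0.019 with either pseudocount), and alh-3 (0.0032) and alh-4 (0.010) with library totals only. The rest came with 1 library left out, where the ranges were −0.66 to 0.14 for sodh-1, −0.14 to 0.092 for alh-3, −0.20 to 0.17 for alh-4, −0.57 to 0.64 for alh-5, −0.012 to 0.26 for alh-12 and −0.95 to 0.61 for alh-13. In number 3 against number 2, 3346 genes were called, 1195 without a filter, 1402 without ASP 2 and 1481 without Control 2, within a leave-one-out range of 1402 to 3612. Members called were 3 to 5. alh-3 was at −0.057 with library totals only, −0.074 with limma and −0.076 with the smaller pseudocount. With 1 library left out it ran between −0.19 and 0.22, alh-5 between −1.76 and 0.14, and sodh-1 between −2.45 and 0.36. In number 2 against number 1, genes called were 530, 875 with DESeq2, 9 without a filter, 297 with limma and 304 with the smaller pseudocount, and 195 without ASP 2, 78 without Control 2, 1546 without ASP 3 and 1511 without Control 3. Members called were 0 without a filter and with limma under either pseudocount, and 0 to 3 with 1 library left out. The leave-one-out ranges were −1.34 to 0.55 for sodh-1, −0.082 to 1.84 for alh-5, −0.089 to 0.041 for alh-1 and −0.14 to 0.042 for alh-4. In number 3 against number 1, genes called were 5167, 3116 without a filter, 3391 without ASP 1 and 3253 without Control 1 (range 3253 to 5093), and members called were 2 to 4. alh-12 was at −0.066 with library totals only, −0.076 with limma and −0.079 with the smaller pseudocount, and adh-5 at 0.00096 with the filter of 5 FPKM. The leave-one-out ranges were −0.19 to 0.23 for alh-12, −0.80 to 1.003 for alh-5, −0.072 to 0.035 for adh-5 and −2.73 to 0.091 for sodh-1. The median of all genes lay at −0.108 in this comparison with limma and the smaller pseudocount, and at −0.0098 in edgeR. The causes were not tested, and fits with 1 library left out assume that a lone library varies like the others.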

Other observations

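alh-8 also belongs to the propionate and valine steps, whose 4 listed genes were examined for this reason. Between ASP and Control 0 of the 4 passed. In number 2 against number 1, 3 of the 4 fell, beside 1.14% of all genes tested. acdh-1, an acyl-coenzyme A dehydrogenase of the propionate shunt, had 3.98 FPKM in ASP 2 and 4.804 in Control 2, against 349.7 in ASP 1 and 364 in Control 1 (log2 −6.34, SE 0.16, adjusted p 1.04e-06 in edgeR). hphd-1, a hydroxyacid dehydrogenase of the same shunt, had 20.7 FPKM in ASP 2 and 22.3 in Control 2, against 106.5 in ASP 1 and 116.7 in Control 1 (log2 −2.37, SE 0.08, adjusted p 1.03e-05 in edgeR). hach-1, the hydrolase between them, fell by 1.14 on the log2 scale (SE 0.08, adjusted p 0.000342 in edgeR). B0250.5, annotated as 3-hydroxyisobutyrate dehydrogenase, was at −0.30 (SE 0.08) and did not pass (adjusted p 0.0952 in edgeR). The fall in alh-8 at the same contrast, log2 −0.59, was the only call among the 6 further dehydrogenases tested there. In number 3 against number 1, all 4 listed genes were called lower, beside 19.1% of all genes, with acdh-1 at log2 −7.50 (SE 0.17). In number 3 against number 2, 1 of the 4 was called lower, beside 12.2%. It was acdh-1 (log2 −1.16, SE 0.15, adjusted p 0.00119 in edgeR).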
